A study of Mus musculus with 12 samples.

Results

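The AP-1 and ATF transcription factor genes were followed in neutrophils from healthy spleens and from injured livers of mice. They are Fos, Fosb, Fosl2, Jun, Junb, Jund, Atf3, Atf4 and Maff, read together with Gm11175, an antisense gene on the other strand of Jund. The members were taken by symbol: 10 of the 48709 gene rows of the count table carried an Ensembl ID that GRCm38 annotation gives to one of these symbols. All 10 passed the filter on low counts, as did 12488 genes in all.

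AP-1 is a dimer of basic leucine zipper proteins. A JUN protein pairs with another JUN or with a FOS protein and binds short DNA sites in promoters and enhancers. Fos, Fosb, Jun, Junb and Atf3 are immediate early genes, whose RNA rises within minutes of a growth factor, cytokine or stress signal without new protein synthesis. ATF4 is made mainly when translation initiation is limited by phosphorylated eIF2, and ATF3 is among its targets. MAFF is a small MAF protein that lacks a transactivation domain and pairs with NRF2 or BACH1 at antioxidant response elements. In neutrophils, AP-1 factors take part in the transcription of cytokine genes after activation.

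Bulk RNA sequencing was done on C57BL/6N male mice aged 8 to 10 weeks. Acute liver injury was induced by 1 intraperitoneal dose of carbon tetrachloride (CCl4, 1 mL/kg), a hepatotoxin. The 3 groups were control neutrophils from spleens of untreated mice (n = 3) and neutrophils from livers taken 24 h (n = 4, hereafter 24-hour neutrophils) or 72 h after CCl4 (n = 5, 72-hour neutrophils). The study took 24 h as the necroinflammation phase and 72 h as repair, which it calls early in one place and late in another. All cells were enriched with anti-Ly6G beads and sorted. Livers were minced, digested with collagenase D at warm temperature and spun through Percoll, whereas spleens were dissociated by mechanical means alone. Organ, injury and digestion therefore differed together between spleen and liver and cannot be told apart, while both liver groups were digested. The same 3 spleen libraries served both liver groups, so those 2 comparisons are not independent.

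Each library held 1267089 to 3017403 counts on genes (median 1897037). They were a small part of the reads: 96.8% to 97.3% of the uniquely aligned reads lay on no gene. The libraries were made with a kit that marks strand, and all 20 genes with the most counts have exons opposite another gene, against 39.8% of the tested genes. In 148 of 159 pairs of an antisense and a protein-coding gene (93.1%), with at least 50% of the antisense exon bases shared and at least 100 counts, the antisense gene had more counts per exon base than its partner. S100a9 and S100a8, among the most abundant transcripts of neutrophils, ranked only 124 and 347 by counts. Reads were assigned by strand: all Gm11175 exon bases lie within the Jund exon, so counting without strand would have made its reads ambiguous, yet its counts exceeded all ambiguous reads in 10 of 12 libraries. Whether the strand setting of the counter was the one the kit needs is not given in the sources used here, and the libraries may have been counted with the opposite setting. Each row would then hold reads antisense to the gene it names, for every member, also those with no gene opposite them. The values are given by row as labelled, and a level or a difference of a gene means that of its row. Replicates 2 and 3 of the 72-hour neutrophils stood apart with 1.91% and 1.98% of reads unaligned, against 49.6% to 50.7% in the other 10 libraries. All 12 neutrophil markers were detected, with a summed level of 2025 to 7506 normalized CPM (counts scaled by TMM to a common library size) in spleen, 1318 to 3083 in 24-hour and 2349 to 3173 in 72-hour neutrophils. Of these 12, 2 were called lower than in spleen at 24 h (S100a8 and S100a9). At 72 h 4 were called lower, among them S100a8, S100a9 and Ly6g, the sort marker (log2 -2.69, edgeR adjusted p = 0.0129), and 1 higher. Markers of immature neutrophils (11 genes) summed to 2610 to 4672 CPM in spleen, 884 to 1279 in 24-hour and 973 to 1528 in 72-hour neutrophils. Most of the liver sums was the Mki67 row, with means of 1128, 1035 and 1186 CPM in the 3 groups and no call. Of the 7 tested, 5 were called lower than in spleen at both times. Among these, Ltf had means of 1186, 2.10 and 6.75 CPM and Ngp 1375, 28.8 and 10.6 CPM. The ranges of the 12 hepatocyte markers were 2.32 to 6.11, 14.9 to 19.8 and 4.54 to 32.5 CPM, with Apoc3, Ttr, Cps1 and Tat at 0 everywhere. Macrophage and monocyte markers summed to 131 to 214 CPM in all 12 libraries, B cell markers to 33.1 to 79.2 CPM, endothelial markers to 30.6 to 73.6 CPM, T and NK cell markers to at most 7.07 CPM and erythroid markers to at most 5.84 CPM. The largest part of the first 3 sums was 1 row each: Csf1r (group means 92.8 to 141 CPM), Cd79a (31.6 to 47.9) and Clec4g (34.9 to 40.0). The part of these other cells in the results was not tested.

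The upstream promoters of the members that were called higher in a liver comparison and hold one of the elements marked follow. The choice used both the call and the element, so the printed set does not link them. Fosl2 was called but holds no marked element, and Atf4 and Maff hold such elements but were not called. Their promoters are not printed. Each printed promoter is the 250 bases before the RefSeq start site (GRCm38.p6), read 5′ to 3′ on the gene's own strand. Capitals mark TGACG on either strand (the core of the cAMP response element, CRE), TGACATCA on either strand (the element known from the JUN promoter, bound by JUN and ATF2) and TATAAA (the TATA box).
Fos, chr12:85473640-85473889, plus strand: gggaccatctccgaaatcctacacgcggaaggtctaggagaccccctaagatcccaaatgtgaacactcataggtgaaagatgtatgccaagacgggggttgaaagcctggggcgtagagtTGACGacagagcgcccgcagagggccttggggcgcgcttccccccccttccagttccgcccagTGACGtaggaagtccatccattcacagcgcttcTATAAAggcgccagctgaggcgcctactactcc
Fosb, chr7:19310046-19310295, minus strand: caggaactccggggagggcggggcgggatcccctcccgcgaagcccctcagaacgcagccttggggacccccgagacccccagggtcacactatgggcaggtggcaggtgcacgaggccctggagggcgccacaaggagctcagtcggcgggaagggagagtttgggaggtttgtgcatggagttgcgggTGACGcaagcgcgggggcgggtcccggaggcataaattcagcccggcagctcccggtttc
Jun, chr4:95052223-95052472, minus strand: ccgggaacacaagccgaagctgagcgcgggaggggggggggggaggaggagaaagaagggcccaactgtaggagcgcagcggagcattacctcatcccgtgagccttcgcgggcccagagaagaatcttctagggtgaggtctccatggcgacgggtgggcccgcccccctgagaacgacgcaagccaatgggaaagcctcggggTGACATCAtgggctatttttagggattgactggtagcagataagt
Junb, chr8:84978749-84978998, minus strand: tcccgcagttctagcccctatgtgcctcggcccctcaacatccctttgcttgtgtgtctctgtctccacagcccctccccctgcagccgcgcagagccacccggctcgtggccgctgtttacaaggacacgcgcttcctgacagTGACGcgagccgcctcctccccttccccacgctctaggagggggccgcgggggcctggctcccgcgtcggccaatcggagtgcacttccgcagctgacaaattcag
Atf3, chr1:191183334-191183583, minus strand: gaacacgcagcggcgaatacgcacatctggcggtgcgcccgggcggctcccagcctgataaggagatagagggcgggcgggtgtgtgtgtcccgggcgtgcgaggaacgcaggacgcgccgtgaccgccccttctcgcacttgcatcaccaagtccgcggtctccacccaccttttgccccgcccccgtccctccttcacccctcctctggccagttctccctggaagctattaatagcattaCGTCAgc

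A RefSeq promoter was found for 9 of the 10 members, with 11 start sites in all. TGACG stood in 6 of the 9 (Fos, Fosb, Junb, Atf3, Atf4 and Maff), against 17.8% of all 32851 promoters cut to the same length. Members are counted as genes with a match at any start site, of which Maff had more than 1. The percentages are of single promoters, so the units differ. Fos held it 129 and 66 bases before the start and a TATA box 33 bases before it. A TATA box stood anywhere in the 250 bases of 12.4% of all promoters. TGACATCA stood in Jun, 45 bases before the start, and in Maff (2.93% of all promoters). The complete CRE, TGACGTCA, which contains TGACG on both strands, stood in Maff alone (1.55%). Within these 250 bases the canonical AP-1 site, TGAGTCA or TGACTCA, was in none of the 9 (4.46% of all). The CArG box bound by SRF was absent from the same windows (1.47%). Bases farther upstream were not searched, so these absences hold for the window and not for the whole regulatory region of a gene. Fosl2 held none of these elements and Jund's RefSeq window starts upstream of the annotated exon used for its counts. These are matches of letters and say nothing of binding.

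Against control spleen, 5 of the 10 members were called higher in 24-hour neutrophils (Fos, Fosb, Fosl2, Jun and Junb) and 0 lower. The background was 5.35% of the 12488 tested genes called higher and 4.4% called lower. In 72-hour neutrophils 6 of 10 were called higher, the same 5 and Atf3, with 0 lower, against 2.63% of tested genes higher and 2.71% lower. Between the liver groups 3 members, Fos, Fosb and Atf3, were higher in 72-hour than in 24-hour neutrophils and 0 lower, against 1.65% higher and 2.84% lower. A gene was called at an edgeR adjusted p under 0.05 if its log2 fold change was also 0.5 or more in size. In these bulk samples fewer cells of a type and less RNA per cell cannot be told apart. The median log2 fold change over all tested genes was -0.23 at 24 h, -0.02 at 72 h and 0.18 between the liver groups, so members are read against those medians.

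**Figure D1:**
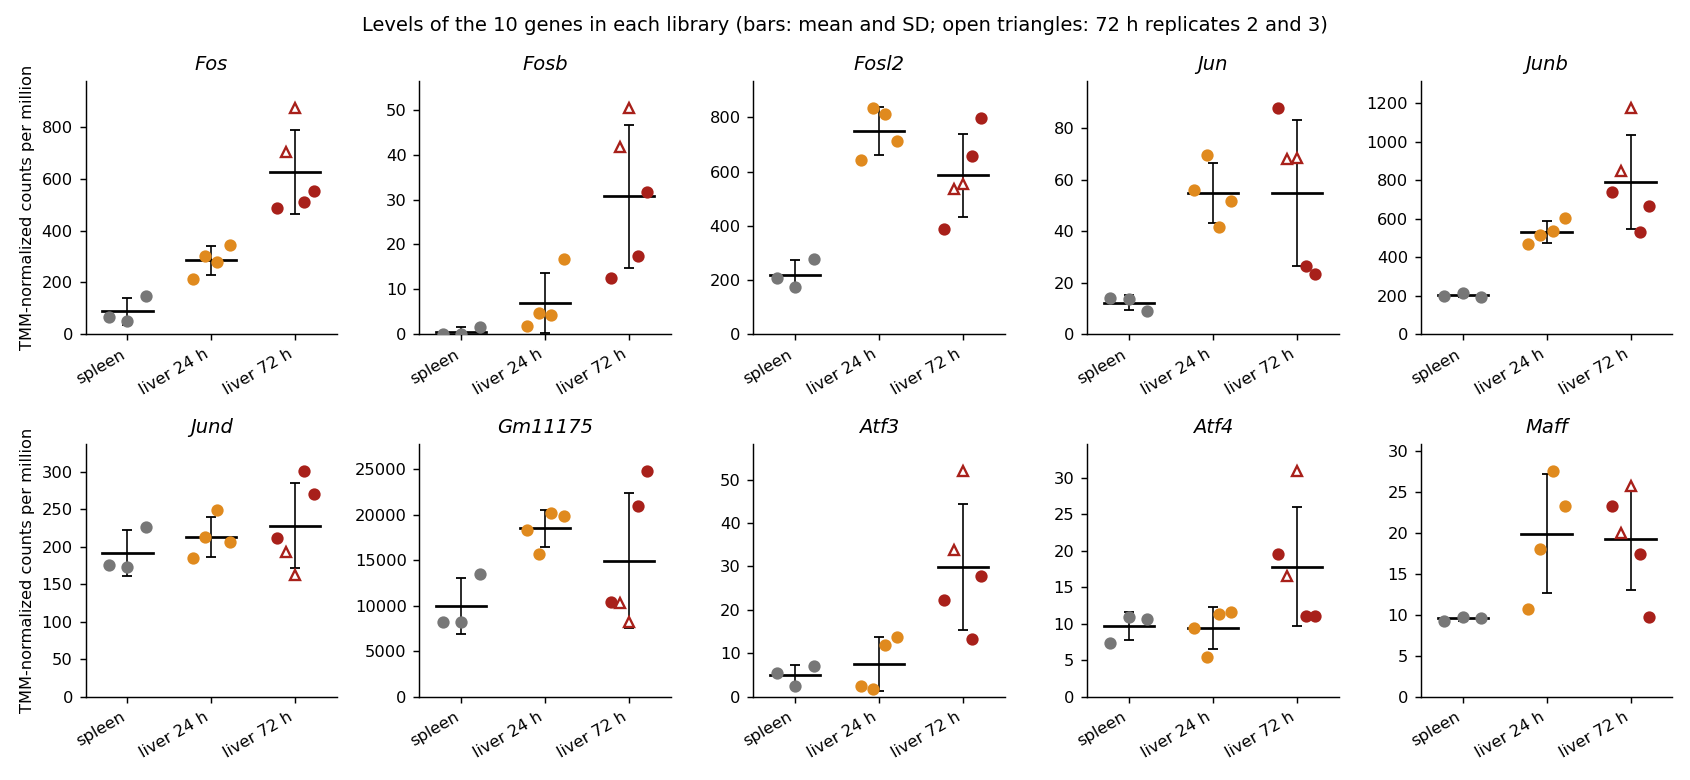
TMM-normalized CPM (y axis, linear, each panel with its own scale) of the 10 genes in control spleen, liver 24 h and liver 72 h libraries (x axis). Points are single libraries, open triangles are 72-hour replicates 2 and 3, and bars are the mean and SD. Fos, Fosb, Fosl2, Jun and Junb lay above every spleen library in all 9 liver libraries, and Jun and Gm11175 spread widely among the 72-hour libraries.

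Fos encodes the FOS subunit of AP-1, which needs a JUN partner to bind DNA. Fos stood at 65.9, 50.4 and 146.6 CPM in the 3 spleen libraries, at 213, 303, 279 and 345 CPM in 24-hour neutrophils, and at 486, 703, 874, 511 and 554 CPM in 72-hour neutrophils. The 3 groups did not overlap, and the highest values were in 72-hour replicates 2 and 3. The log2 fold change of Fos was 1.70 (SE 0.32, edgeR adjusted p = 0.0015) at 24 h and 2.83 (SE 0.33, edgeR adjusted p = 9.2e-06) at 72 h. It kept its call in both under all 21 alternatives run. Without spleen replicate 3, the highest spleen library, these values were 2.29 and 3.43. Fos lies on chromosome 12 (GRCm38, 85473890 to 85477273, plus strand) and no exon of another gene lies opposite its exons.

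Fosb, whose product also pairs with JUN proteins, was the least abundant member in every group per kilobase. Its counts in spleen were 0, 0 and 5 reads. In 24-hour neutrophils Fosb was at 1.89, 4.80, 4.24 and 16.8 CPM, and in 72-hour neutrophils at 12.5, 41.8, 50.5, 17.4 and 31.8 CPM. Every liver library was above every spleen library, while 24-hour replicate 4 lay within the 72-hour range. The log2 fold change was 3.36 (SE 0.90, edgeR adjusted p = 0.0187) at 24 h and 5.55 (SE 0.83, edgeR adjusted p = 1.9e-04) at 72 h. With 5 spleen reads in all, its size is poorly fixed: without spleen replicate 3, which holds those reads, the values were 6.77 and 8.96. At 24 h Fosb was no longer called without spleen replicate 1 (2.93, edgeR adjusted p = 0.081), spleen replicate 2 (2.82, 0.0895) or 24-hour replicate 4 (2.48, 0.102), in limma-voom (adjusted p = 0.0521) and in the fit of these 2 groups alone (edgeR adjusted p = 0.0534). Fosb lies on chromosome 7 (GRCm38, 19302696 to 19310051, minus strand), and its exons have no exon opposite them.

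Fosl2 encodes FRA2, a FOS family protein without the strong transactivation domain of FOS. Fosl2 was at 207, 173 and 277 CPM in spleen, at 643, 834, 813 and 713 CPM in 24-hour neutrophils and at 387, 537, 553, 659 and 797 CPM in 72-hour neutrophils. Both liver groups lay above the spleen range and overlapped each other. Fosl2 had log2 fold changes of 1.78 (SE 0.25, edgeR adjusted p = 1.1e-04) at 24 h and 1.42 (SE 0.24, edgeR adjusted p = 6.9e-04) at 72 h. Among the FOS family members it alone had a higher mean at 24 h (751 ± 89.1 CPM, SD, n = 4) than at 72 h (586 ± 152 CPM, SD, n = 5), a difference that did not pass the test (log2 -0.36, 95% interval -0.77 to 0.05, edgeR adjusted p = 0.336). Both calls against spleen held under all 21 alternatives. Fosl2 lies on chromosome 5 (GRCm38, 32135801 to 32157842, plus strand), and its exons have no exon opposite them.

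Jun encodes c-JUN, the central AP-1 subunit and a substrate of JNK. Jun was at 13.9, 13.8 and 9.003 CPM in spleen, at 56.1, 69.6, 41.7 and 51.8 CPM in 24-hour neutrophils, and at 87.8, 68.1, 68.4, 26.4 and 23.4 CPM in 72-hour neutrophils. All liver libraries exceeded all spleen libraries, and 72-hour replicates 4 and 5 lay below every 24-hour library. The log2 fold change was 2.17 (SE 0.42, edgeR adjusted p = 0.00182) at 24 h and 2.18 (SE 0.40, edgeR adjusted p = 0.00154) at 72 h. Both liver means were 54.8 CPM, with an SD of 11.6 at 24 h and 28.5 at 72 h. Their difference was 0.01 on the log2 scale (95% interval -0.64 to 0.66, edgeR adjusted p = 0.992), and its sign changed under 10 of 21 alternatives. Jun lies on chromosome 4 (GRCm38, 95049034 to 95052222, minus strand). The antisense gene Junos shares 232 exon bases with Jun (7.28% of the Jun exon bases) on chromosome 4. Junos held 26026 counts over the 12 libraries and Jun 1085. Junos was at 325 to 361 CPM in spleen, 1681 to 2341 CPM in 24-hour and 698 to 1558 CPM in 72-hour neutrophils. Its groups did not overlap. Junos was higher at 24 h (log2 2.48, SE 0.26, edgeR adjusted p = 3.3e-06) and at 72 h (1.60, SE 0.24, edgeR adjusted p = 2.3e-04), and lower at 72 h than at 24 h (-0.88, SE 0.21, edgeR adjusted p = 0.0192). Both rows of this pair were higher in liver neutrophils. With the opposite strand setting, reads of Jun RNA from the 232 shared bases would be listed under Junos, and the Jun row would hold antisense reads.

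Junb encodes JUNB, which binds the same sites as JUN and activates many promoters less strongly. Junb was at 196, 213 and 195 CPM in spleen, at 469, 512, 537 and 603 CPM in 24-hour neutrophils, and at 741, 846, 1174, 530 and 666 CPM in 72-hour neutrophils. The spleen libraries were close together and far below both liver groups. Junb had log2 fold changes of 1.40 (SE 0.24, edgeR adjusted p = 7.7e-04) at 24 h and 1.98 (SE 0.24, edgeR adjusted p = 1.8e-05) at 72 h, and both calls held under all 21 alternatives. Junb lies on chromosome 8 (GRCm38, 84974484 to 84978718, minus strand). Prdx2 shares 173 exon bases with Junb on the opposite strand and held 95 counts against 14195 for Junb. Prdx2 was not called in any of the 3 comparisons.

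Jund encodes JUND, the JUN protein that is usually present in resting cells. Jund was at 175, 174 and 227 CPM in spleen, at 185, 213, 249 and 206 CPM in 24-hour neutrophils, and at 212, 193, 163, 302 and 271 CPM in 72-hour neutrophils. The groups overlapped in all 3 comparisons. Its log2 fold change was 0.15 at 24 h (95% interval -0.32 to 0.62, edgeR adjusted p = 0.735), 0.25 at 72 h (-0.20 to 0.69, edgeR adjusted p = 0.676) and 0.09 between the liver groups (-0.32 to 0.51, edgeR adjusted p = 0.842). Jund was not called in any comparison.

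The counts at the Jund locus were mostly listed under Gm11175. Jund is a single exon of 1668 bases on chromosome 8 (GRCm38, 70698949 to 70700616, plus strand) with 1023 coding bases. Gm11175 has 877 exon bases on the minus strand (70699162 to 70700080), and all 877 lie opposite the coding sequence of Jund, 52.6% of its exon bases. Gm11175 held 17768 to 42006 counts per library, rank 8 of all genes by its total, and Jund 283 to 705. In spleen the 3 libraries had 47.0, 47.2 and 59.6 Gm11175 reads for each Jund read. In 24-hour neutrophils the ratio was 98.8, 73.9, 81.3 and 96.1, above every spleen library. In 72-hour neutrophils it was 49.4, 53.3, 50.3, 69.4 and 91.6, which overlapped both other groups.

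Gm11175 counts were 8242, 8188 and 13507 CPM in spleen, 18325, 15737, 20234 and 19828 CPM in 24-hour and 10470, 10310, 8195, 20923 and 24841 CPM in 72-hour neutrophils. The 24-hour libraries all lay above spleen, and 72-hour replicates 1 to 3 lay within the spleen range while replicates 4 and 5 were the 2 highest libraries. Gm11175 had log2 fold changes of 0.89 at 24 h (SE 0.31, edgeR adjusted p = 0.0673), 0.58 at 72 h (SE 0.29, 0.32) and -0.31 between the liver groups (SE 0.26, 0.532). The 24-hour value crossed the threshold under 9 of 21 alternatives, such as limma-voom (adjusted p = 0.0485) and the fit without 72-hour replicates 4 and 5 (edgeR adjusted p = 0.00194). Without those replicates Gm11175 was lower at 72 h than at 24 h (log2 -0.95, edgeR adjusted p = 0.00327). The Gm11175 share of the summed counts of both genes needs no library scaling. It was 98.06% ± 0.248 in spleen (SD, n = 3), 98.85% ± 0.158 at 24 h (n = 4) and 98.35% ± 0.392 at 72 h (n = 5). By a two-sided exact permutation test the share was 0.791 percentage points higher at 24 h than in spleen (p = 0.0286, the smallest that 35 assignments allow, adjusted p = 0.0857 over 3 pairs). The 72-hour share was 0.282 points above spleen (exact p = 0.339) and 0.509 points below 24 h (exact p = 0.0635, adjusted p = 0.0952). None passed after adjustment. With the opposite strand setting the names change places. The Gm11175 row would hold reads of Jund RNA from the 877 shared bases, and the Jund row antisense reads over all 1668 bases. The 98.06%, 98.85% and 98.35% would then be the part of Jund RNA in the summed counts, not a share at the shared bases alone. Jund would follow the Gm11175 row in every comparison. Which reading holds was not tested, and the counts over all genes that bear on the strand setting are given above.

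**Figure D2:**
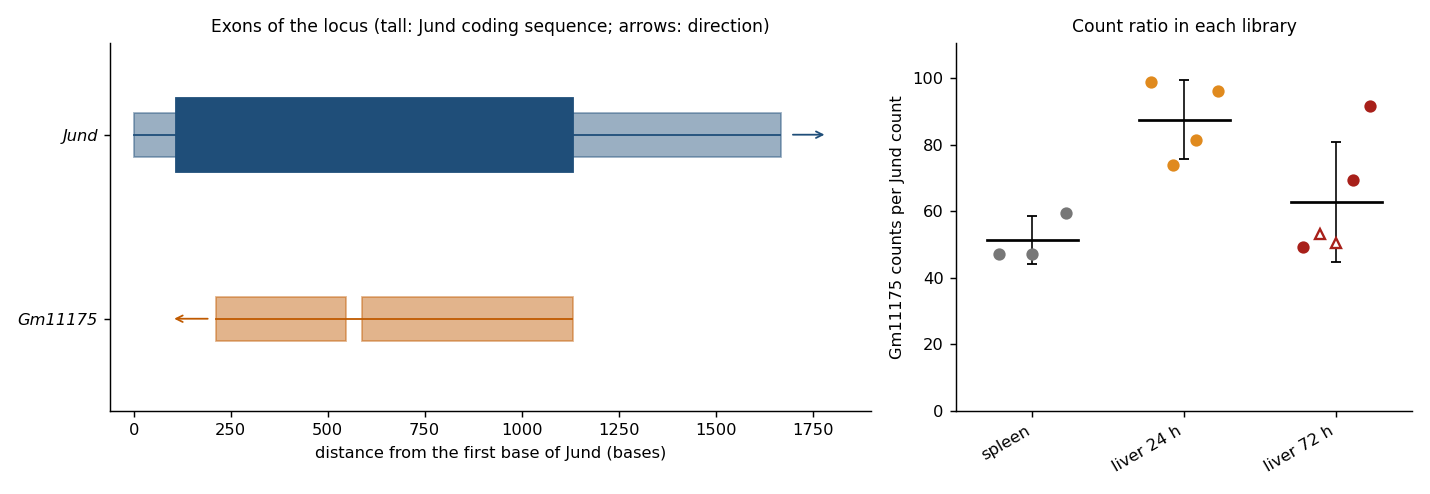
Left, exons of Jund (upper, plus strand) and Gm11175 (lower, minus strand) by distance in bases from the first base of Jund, with the Jund coding sequence drawn taller; all 877 exon bases of Gm11175 lie opposite it. Right, Gm11175 counts per Jund count in each library (open triangles are 72-hour replicates 2 and 3), with mean and SD; the 4 libraries of 24-hour neutrophils lie between 73.9 and 98.8, above the spleen libraries.

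Atf3 encodes a stress-induced factor that as a homodimer represses transcription. Atf3 was at 5.57, 2.54 and 7.07 CPM in spleen, at 2.52, 1.80, 12.02 and 13.9 CPM in 24-hour neutrophils, and at 22.2, 33.9, 52.0, 13.2 and 27.9 CPM in 72-hour neutrophils. Of the 24-hour libraries 2 lay below and 2 above the whole spleen range, and the 72-hour libraries all lay above spleen. Atf3 had log2 fold changes of 0.54 at 24 h (95% interval -0.66 to 1.73, edgeR adjusted p = 0.618) and 2.56 at 72 h (SE 0.57, edgeR adjusted p = 0.00709). Its counts were 3 to 22 reads per library in spleen and 24-hour samples and 19 to 168 in 72-hour samples. The 72-hour call was lost without 72-hour replicates 2 and 3 (2.05, edgeR adjusted p = 0.0955) and without spleen replicate 2 (2.23, edgeR adjusted p = 0.0728). Atf3 lies on chromosome 1 (GRCm38, 191170296 to 191218039, minus strand), and its exons have no exon opposite them.

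Atf4, the factor of the integrated stress response, is regulated largely at translation, which counts of RNA do not measure. Atf4 was at 7.42, 10.9 and 10.6 CPM in spleen, at 9.46, 5.40, 11.3 and 11.7 CPM in 24-hour neutrophils, and at 19.5, 16.6, 31.0, 11.1 and 11.03 CPM in 72-hour neutrophils. The 72-hour libraries were above spleen, by little in replicates 4 and 5. The log2 fold change was -0.04 at 24 h (95% interval -0.90 to 0.81, edgeR adjusted p = 0.967) and 0.90 at 72 h (0.11 to 1.70, edgeR adjusted p = 0.246). Atf4 was not called in any comparison. Atf4 lies on chromosome 15 (GRCm38, 80255184 to 80257541, plus strand), and its exons have no exon opposite them.

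Maff was at 9.28, 9.79 and 9.65 CPM in spleen, at 10.7, 18.0, 27.6 and 23.3 CPM in 24-hour neutrophils, and at 23.3, 20.03, 25.7, 17.4 and 9.73 CPM in 72-hour neutrophils. Only 72-hour replicate 5 lay within the spleen range. Maff had log2 fold changes of 1.05 at 24 h (SE 0.40, edgeR adjusted p = 0.0999) and 1.02 at 72 h (SE 0.38, edgeR adjusted p = 0.142), and it was not called. It was called at 72 h without 72-hour replicates 4 and 5 (log2 1.27, edgeR adjusted p = 0.038). Maff lies on chromosome 15 (GRCm38, 79346621 to 79359076, plus strand), and its exons have no exon opposite them.

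**Figure D3:**
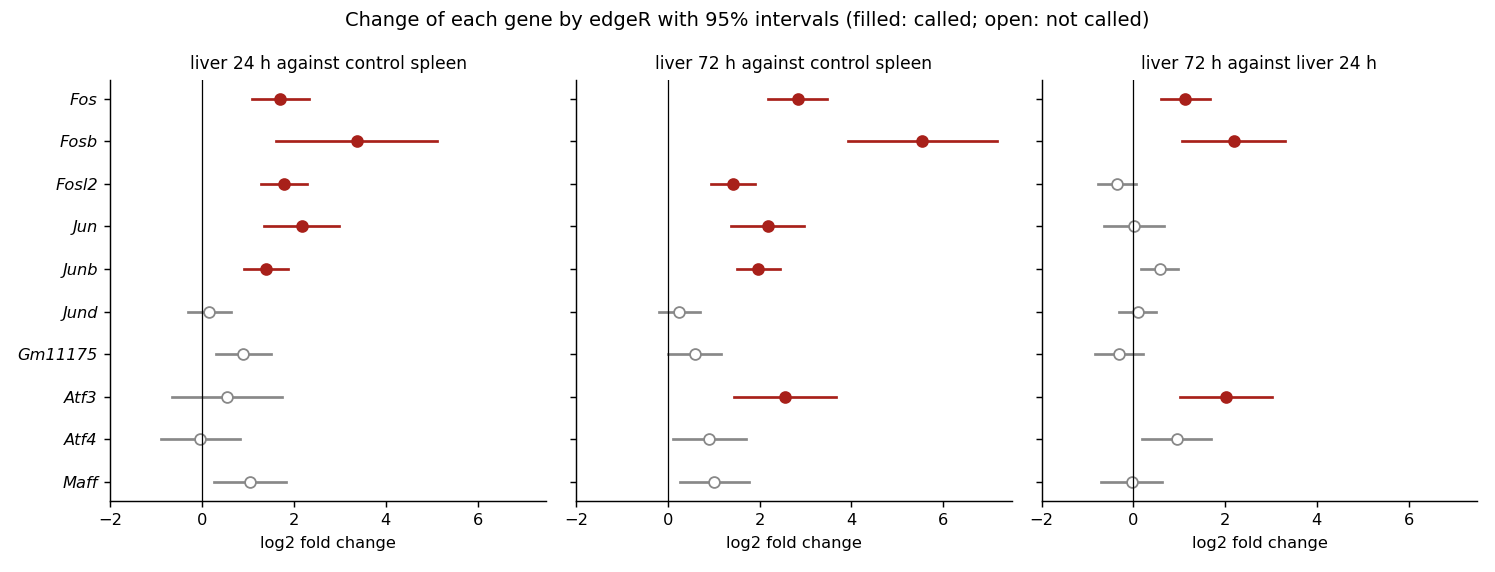
Log2 fold change (x axis) of each member with its 95% interval in the 3 comparisons, by edgeR; filled red points were called, open grey points were not. Fosb has the widest intervals, and Fos, Fosb and Atf3 are the members called in the right panel.

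Between the liver groups, which were digested alike, Fos was higher in 72-hour neutrophils by 1.13 on the log2 scale (SE 0.27, edgeR adjusted p = 0.0195), with 5 of 5 libraries above all 24-hour libraries. Fosb was higher by 2.19 (SE 0.57, edgeR adjusted p = 0.0315) and Atf3 by 2.03 (SE 0.51, edgeR adjusted p = 0.0266), each with 1 of the 4 24-hour libraries inside the 72-hour range. Junb missed the threshold (log2 0.58, SE 0.21, edgeR adjusted p = 0.11), as did Atf4 (0.94, SE 0.39, edgeR adjusted p = 0.164). Maff differed by -0.03 (95% interval -0.70 to 0.63, edgeR adjusted p = 0.973). The 3 calls rest on few libraries. Without 72-hour replicates 2 and 3, the libraries with few unaligned reads, 0 members were called: Fos was at 0.86 (edgeR adjusted p = 0.126), Fosb at 1.58 (0.229) and Atf3 at 1.51 (0.192). The count was also 0 without 24-hour replicate 1, 24-hour replicate 2 or 72-hour replicate 3, and 1 without 72-hour replicate 2. Without 72-hour replicates 4 and 5 it was 5. In all of these fits Fos, Fosb and Atf3 kept a positive sign.

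Per kilobase of exon, Gm11175 led every group, at 11379 CPM per kb in spleen. Among the others in spleen Jund was highest (115 CPM per kb), then Junb (87.5), without overlap between the libraries of neighbours. Fos (37.3) and Fosl2 (22.6) overlapped, and so did Atf4 (4.09), Jun (3.84) and Maff (3.69), ahead of Atf3 (2.35). In 24-hour neutrophils Junb stood first (230 CPM per kb), Jund (128) and Fos (121) overlapped, and Fosl2 (77.6) and Jun (17.2) followed apart from them. In 72-hour neutrophils Junb (344 CPM per kb) and Fos (266) overlapped and lay above Jund (137), Fosl2 (60.6) and Jun (17.2). Jun and Atf3 overlapped there. The order is that of the rows as labelled. With the opposite strand setting the 11379 CPM per kb would belong to Jund RNA and the 115 to its antisense strand, and the other levels would be antisense reads too.

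By the root mean square difference of centered log2 CPM over the 12 libraries, a description with no test, the genes most like Fos were Dusp1 (0.31) and Btg2 (0.33). Fos itself varied by 1.23 on that measure. The other members varied by 1.93 (Fosb), 0.76 (Fosl2), 1.02 (Jun), 0.81 (Junb) and 0.26 (Jund). Gm11175 varied by 0.57, Atf3 by 1.34, Atf4 by 0.57 and Maff by 0.56. A member that varies little has small differences to many genes, so the values are not comparable between members. Dusp1 encodes a phosphatase of MAP kinases and Btg2 an antiproliferative early response protein. Fosb was most like Fos (0.82) and Spdya (0.83). Fosl2 was closest to P2ry2, a receptor for extracellular nucleotides (0.29), and Zfp36, which encodes the mRNA-destabilizing protein tristetraprolin (0.29). Jun was closest to Itgb1, the integrin β1 gene, and Il1rn, which encodes the interleukin 1 receptor antagonist (both 0.32). The values for the other members were: Junb and Slc26a11 (0.27) and Trem1 (0.31), Jund and Rnf2 (0.12) and Ubl5 (0.16), Gm11175 and Klra5 (0.27) and Ptger2 (0.27), Atf3 and Ptgs2os2 (0.58) and Spdya (0.58), Atf4 and Rpl15 (0.24) and Gm10138 (0.26), and Maff and Sgsm2 (0.23) and A630001O12Rik (0.26).

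Of 27 tested genes of other basic leucine zipper partners, 3 were higher and 1 lower at 24 h, and 1 was higher and 1 lower at 72 h. Their median log2 fold change was 0.03 and 0.43, against -0.23 and -0.02 over all tested genes. Of all tested genes 5.35% were called higher and 4.4% lower at 24 h, and 2.63% and 2.71% at 72 h. Cebpb, which encodes the C/EBPβ factor of emergency granulopoiesis, was at 133 ± 4.53 CPM in spleen (SD, n = 3) and was higher by 2.82 at 24 h (SE 0.29, edgeR adjusted p = 2.0e-06) and 2.79 at 72 h (SE 0.28, edgeR adjusted p = 1.6e-06). Atf5 (1.16) and Cebpd (0.65) were higher at 24 h. Cebpe, needed for late granulocyte maturation, was at log2 -3.00 at 24 h (edgeR adjusted p = 0.0148) and -2.26 at 72 h (edgeR adjusted p = 0.0469). Between the liver groups 0 of the 27 were called. Markers of immature neutrophils were also lower in both liver groups (5 of 7 tested), and their part in the Cebpe difference was not tested.

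Kinases and ternary complex factors upstream of AP-1 (20 tested genes) gave 1 call, Elk3 at 24 h (log2 0.87, edgeR adjusted p = 0.0485), and 0 in the other 2 comparisons. Over all tested genes 5.35% were called higher at 24 h, so 1 of 20 is near that share. Elk3 encodes a partner of SRF. The median of the list was -0.24 at 24 h, 0.11 at 72 h and 0.19 between the liver groups. Over all tested genes it was -0.23, -0.02 and 0.18.

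Of 17 tested genes of the integrated stress response, to which Atf4 belongs, 3 were higher and 0 lower at 24 h, 3 and 0 at 72 h, and 2 and 0 between the liver groups. The shares of all tested genes in these comparisons were 5.35%, 2.63% and 1.65% higher and 4.4%, 2.71% and 2.84% lower. As a set this list did not rise at 24 h, when only 7 of its 17 genes lay above 0. At 72 h against spleen, and between the liver groups, 12 did. Its middle log2 values were -0.04, 0.44 and 0.40 in the 3 comparisons, against -0.23, -0.02 and 0.18 over all tested genes. Slc7a11, the cystine transporter, was at 10.3 ± 3.35 CPM in spleen, 40.5 ± 7.44 at 24 h and 53.0 ± 20.6 at 72 h (SD), and was higher by 1.96 (edgeR adjusted p = 0.00173) and 2.36 (edgeR adjusted p = 2.7e-04). Ppp1r15a, which encodes the eIF2 phosphatase subunit GADD34, was higher by 3.61 at 72 h against spleen (SE 0.63, edgeR adjusted p = 8.4e-04) and by 1.83 against 24 h (SE 0.51, edgeR adjusted p = 0.0426). It was at 5.44 ± 1.48 CPM in spleen, 19.25 ± 10.65 at 24 h and 66.8 ± 56.3 at 72 h (SD), a wide spread at 72 h. How far its calls rest on single libraries was not tested. Slc3a2, the partner chain of Slc7a11, was higher at 72 h (1.89, edgeR adjusted p = 0.0442), and Atf5 at 24 h. Slc7a11 is also counted among the NRF2 targets and Atf5 among the other basic leucine zipper partners, so their calls are not separate evidence for this list. Ddit4 was called higher at 24 h with at most 2 reads in a spleen library, and Chac1 at 72 h against 24 h with at most 2 reads in a 24-hour library.

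Among 11 tested targets of NRF2 and small MAF proteins, the partners of MAFF, 3 were higher at 24 h (Slc7a11, Fth1 and Srxn1) and 4 at 72 h (Slc7a11, Fth1, Gclc and Ftl1), and 0 were lower. The median log2 fold change was 1.25 and 1.54, against -0.23 and -0.02 over all tested genes. Of all tested genes 5.35% and 2.63% were called higher and 4.4% and 2.71% lower. Fth1, the ferritin heavy chain gene, was at 119 ± 28.4 CPM in spleen, 312 ± 87.5 at 24 h and 383 ± 150.2 at 72 h (SD), which is log2 1.38 (edgeR adjusted p = 0.0067) and 1.68 (edgeR adjusted p = 0.00135). Srxn1 and Gclc had at most 5 reads in a spleen library. Between the liver groups 0 of the 11 were called and the median was 0.21.

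Genes known to rise when tissue is dissociated, a list that shares the immediate early class of Fos and Jun but none of the members, moved with the members. Of 21 tested genes, 10 were higher and 0 lower at 24 h, and 7 and 0 at 72 h. The median log2 fold change was 0.86 and 0.81, against -0.23 and -0.02 over all tested genes. Of all tested genes 5.35% were called higher at 24 h, 2.63% at 72 h and 1.65% between the liver groups. The summed level of all 22 was 864 to 962 CPM in spleen, 1672 to 2059 at 24 h and 1850 to 2870 at 72 h. Egr1, an immediate early zinc finger factor, was higher by 2.37 at 24 h (edgeR adjusted p = 4.0e-04) and 2.76 at 72 h (edgeR adjusted p = 7.3e-05), and Dusp1 by 1.95 (edgeR adjusted p = 3.8e-04) and 2.79 (edgeR adjusted p = 9.2e-06). Zfp36 was higher by 1.45 at 24 h (edgeR adjusted p = 4.9e-04). Nr4a1, an orphan nuclear receptor gene, was higher by 4.64 at 72 h (edgeR adjusted p = 2.3e-04). Between the liver groups 2 were higher at 72 h, Btg2 (1.06, edgeR adjusted p = 0.0244) and Hspa8, a heat shock cognate gene (1.31, edgeR adjusted p = 0.0465), and the median was 0.35. The part of dissociation in the higher levels of the AP-1 genes was not tested.

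**Figure D4:**
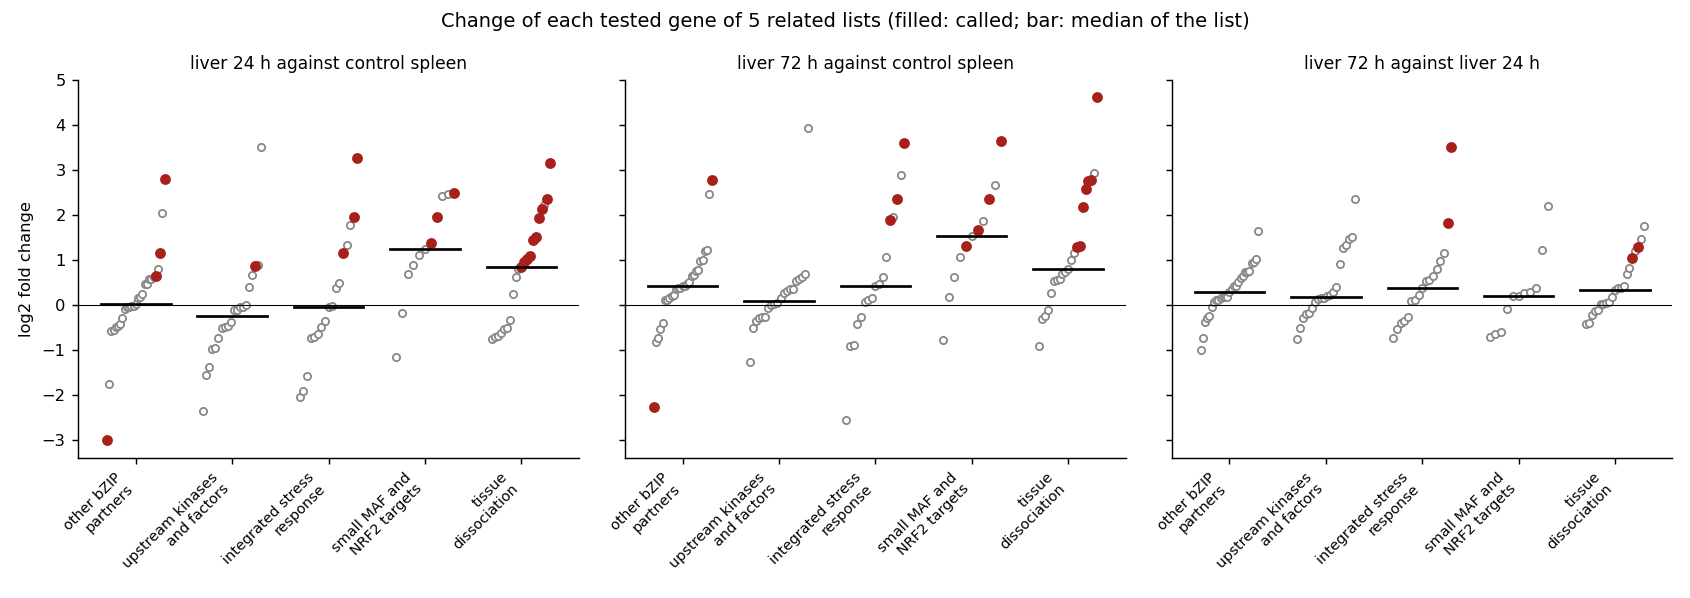
Log2 fold change (y axis) of each tested gene of 5 lists (x axis) in the 3 comparisons; filled red points were called by edgeR, open points were not, and bars are list medians. The tissue dissociation list has 10, 7 and 2 called genes from left to right, all above 0.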

How the data were processed

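RNA from sorted neutrophils was sequenced in 12 libraries prepared with a kit that marks strand. The authors deposited raw counts per gene from HTSeq-count; the submitters' processing notes name STAR 2.7.9a and GRCm38, and the strand option is not given in the sources used here. Rows were matched to GENCODE M21 by Ensembl ID (48349 of 48709), and 5 summary rows were left out of library sizes. Genes over 1 CPM in at least 3 libraries were kept. They were tested with edgeR 4.0.16 (R 4.3.3) in 1 quasi-likelihood fit over all 12 libraries, with TMM scaling and Benjamini-Hochberg adjustment. Called meant an adjusted p under 0.05 with a log2 fold change of 0.5 or more in either direction, the first from the study's methods and the second after the study's limit on absolute fold change, read here as log2. A standard error is the absolute log2 fold change divided by the square root of F, and a 95% interval uses the normal quantile. The Gm11175 share was compared by an exact permutation test. The fit was tested on simulated data. Replicates are separate samples by their labels, which do not say that each is a different animal, so p-values measure the spread between these samples. Every member was named. Of each other list, genes called in a comparison were named, at most the 4 with the smallest adjusted p. The members and lists were chosen with earlier results of these data known. Alternatives were DESeq2 1.42.0, limma-voom (3.58.1, the study's own test), other scalings, no filter, fits of 2 groups, a replicate block and left-out libraries. With 1267089 to 3017403 counts on genes per library, members with few reads were measured least precisely. Intervals cover counting and sample spread only.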

Additional observations from a re-analysis of the deposited data

Results flagged for a closer look

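Fos, Fosb and Atf3 differed between the 2 liver times. Their changes from the shared control spleen libraries differed by 1.13, 2.19 and 2.03 on the log2 scale (72 h minus 24 h, edgeR adjusted p = 0.0195, 0.0315 and 0.0266). This is the same contrast as 72-hour against 24-hour neutrophils, higher in 5 of 5 libraries for Fos and in overlapping ranges for Fosb and Atf3. The 3 differences did not pass the threshold without 72-hour replicates 2 and 3, which had 1.91% and 1.98% of reads unaligned against 49.6% to 50.7% elsewhere. No member had a library that stood apart within its group by the Dixon test at groups of 4 and 5. With so few libraries this test can miss all but extreme values. Fosb in 24-hour replicate 4 came close, with a gap over range of 0.805 against a limit of 0.829. Without that library Fosb was not called at 24 h (edgeR adjusted p = 0.102).

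In liver 24 h replicate 4, 0.227% of the uniquely aligned reads were counted as ambiguous between genes. The range was 0.0197% to 0.0271% in spleen, 0.0209% to 0.0255% in the other 24-hour and 0.0200% to 0.0368% in the 72-hour libraries. Ambiguous reads were in no gene's count. The Fosb value of 24-hour replicate 4 (16.8 CPM) was the highest of the 24-hour libraries, and a relation to its ambiguous reads was not tested.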

How the results depend on the processing

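Of 21 alternatives, Fos, Fosl2, Jun and Junb kept their calls against spleen in all, at both times, and Fosb and Atf3 kept their sign. Against main counts of 1218, 666 and 561 genes called in the 3 comparisons and 5, 6 and 3 members, leaving out 1 library gave 575 to 1320, 314 to 835 and 182 to 796 genes, and 4 to 6, 5 to 6 and 0 to 4 members. The lowest gene counts came without spleen replicate 1 (575 and 322), spleen replicate 2 (611 and 314) and 24-hour replicate 1 (182). Without 72-hour replicates 2 and 3 the 72-hour comparisons called 287 and 197 genes and the liver groups differed in 0 members. Without replicates 4 and 5 they called 1173 and 848 genes, and 7 and 5 members. DESeq2 called 986 genes between the liver groups. With upper-quartile scaling the split between the liver groups was 157 higher and 457 lower, against 206 and 355, or 25.6% against 36.7% of calls higher. The cause of these shifts was not tested.

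The Gm11175 share difference ranged with 1 library left out from 0.718 to 0.934 points at 24 h, from 0.138 to 0.425 at 72 h and from -0.653 to -0.427 between the liver groups. Without 72-hour replicates 4 and 5 it was 0.791 at 24 h and -0.779 between the liver groups (exact adjusted p = 0.0429 each), the first with the same value as the main one because only the adjustment over 3 pairs changed.

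Members near 0 changed sign. Atf4 at 24 h was 0.041 with upper-quartile scaling and 0.0086 with a replicate block. Without 72-hour replicates 4 and 5, Jund and Gm11175 at 72 h were -0.013 and -0.038, and Jund and Maff between the liver groups -0.19 and 0.20. Jun between the liver groups was -0.027 (DESeq2's size factors), -0.076 (upper quartile), -0.029 (DESeq2), -0.10 (limma-voom) and -0.25 without 72-hour replicates 2 and 3, where Gm11175 was 0.017. Maff between the liver groups was 0.030 in limma-voom and 0.16 with a replicate block. With 1 library left out, Atf4 at 24 h ranged from -0.19 to 0.15, and between the liver groups Jun ranged from -0.22 to 0.18, Jund from -0.028 to 0.20 and Maff from -0.24 to 0.17.

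The replicate block called 1302, 874 and 599 genes and changed 1 member call, Gm11175 at 24 h (log2 0.76, edgeR adjusted p = 0.023). No pairing by replicate number was seen: deviations of same-numbered libraries correlated between -0.116 and 0.130, with 1 of 10 over 0.1. Libraries with different numbers gave -0.153 to 0.161, with 3 of 37 over 0.1. With so few libraries per group, this cannot show that the samples were unpaired. Fosb, Atf3, Atf4 and Maff rest on the fewest reads and are limited most by depth.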
